A study of Mus musculus with 6 samples.

Results

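Solute carriers that move amino acids and amino acid transmitters were examined in the trigeminal ganglion of the mouse, which holds the sensory neurons of the face and jaw. The genes were all rows of the deposited expression table whose symbol begins with Slc1a, Slc6a, Slc7a, Slc17a, Slc36a or Slc38a and a number. The creatine carrier Slc6a8 was set aside. This gave 46 of the 13673 genes in the table: 6 of Slc1, 12 of Slc6, 12 of Slc7, 5 of Slc17, 3 of Slc36 and 8 of Slc38. The symbol rule also takes in Slc7a6os, which is named after its neighbour Slc7a6 and encodes no carrier. A further 21 protein-coding genes of these names in GENCODE M21, the monoamine carriers Slc6a2, Slc6a3 and Slc6a4 among them, were not analysed here.

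All mice were wild type. They received CFA (complete Freund's adjuvant, killed mycobacteria in oil that inflames the tissue around it) or saline, and ganglia were taken on day 3. Each group had 3 libraries, and nothing in the labels ties a library to a single animal, so a p-value reflects only library-to-library spread, which may be technical. The labels name neurons and glia as the cell types. The sources used here give no strain, sex, age or site of injection. Values are FPKM (fragments mapped to a gene, divided by transcript length and library size), a measure per length that allows levels of different genes to be compared. A log2 fold change is the CFA mean minus the saline mean of log2(FPKM + 1), given with its standard error (SE). This scale understates the change of genes with low FPKM.

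The libraries were alike in rank order, with Spearman correlations of 0.957 to 0.972 within groups and 0.954 to 0.973 between them. All 12 markers of sensory neurons had rows, and their summed FPKM was 4263 to 5705 per library. Some libraries stood apart in markers of other tissue. The sums of 12 macrophage and 10 neutrophil markers were highest in saline replicate 3 (514 and 587 FPKM, against 179 to 262 and 60.2 to 335 elsewhere). In the macrophage sum Lyz2, which neutrophils also express, made up 396 FPKM of that library and 52.5 to 84.8 of the others. The sum of 8 pituitary markers ran from 266 to 4955 FPKM. Their part in the results was not tested, and values without both libraries numbered 3 are given for part of the genes.

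As background, glutamate is the main transmitter of primary sensory neurons. It is loaded into vesicles by Slc17 carriers and cleared from the extracellular space by sodium-coupled Slc1 carriers, largely on glia. Slc6 carriers clear GABA, glycine, proline and taurine. Satellite glia, which wrap each ganglion neuron, return glutamate as glutamine, which Slc38 carriers release and take up. Slc7 genes encode cationic amino acid carriers and the light chains of exchangers that need a heavy chain such as Slc3a2. Slc36 carriers couple amino acids to protons, in part at the lysosome.

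No gene of these families was called between CFA and saline by limma at an adjusted p below 0.05, where 7 of 12238 tested genes (0.0572%) were called. The smallest adjusted p of a member was 0.193, for Slc7a10. The 42 members with a mean of at least 1 FPKM were tested. Slc7a10 and Slc6a20a, with saline means of 0.522 and 0.749 FPKM, reached that mean only through their CFA libraries. Slc38a4, with a CFA mean of 0.973, reached it only through its saline libraries. At an unadjusted p below 0.05 there were 9 of the 42 members (21.4%), against 8.32% of all tested genes. Of the 9, Slc7a10, Slc38a3, Slc1a2, Slc6a9, Slc6a13, Slc1a4 and Slc6a11 were the 7 higher under CFA (5.37% of all tested genes were). Slc7a5 and Slc1a5 were the 2 lower (2.95% of all). The 3 CFA values and the 3 saline values did not overlap in 15 members (35.7%), against 14.5% of all tested genes. These were 9 higher members (7.89% of all genes) and 6 lower members (6.66% of all). The difference between the members' shares and those of all genes was not tested. The median log2 fold change of the 42 members was -0.027, beside 0.005 for all tested genes.

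By family, the members lay as follows. Of all 12238 tested genes, 6285 had a log2 fold change above 0 and 5953 below it. Groups did not overlap in 14.5% of them. At an unadjusted p below 0.05, 5.37% were higher and 2.95% were lower. In Slc1, 4 of 6 tested members had groups without overlap, 3 higher and 1 lower. In Slc6, 9 of 11 tested members had a log2 fold change above 0, and 3 of these were at an unadjusted p below 0.05. In Slc7, 1 of 10 was above and 1 below the saline level at that p. All 4 tested Slc17 members and all 3 Slc36 members had log2 fold changes below 0, with none at that p. Slc38 had 4 above and 4 below 0, with 1 higher at that p. No test of a difference between families was made.

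**Figure D1:**
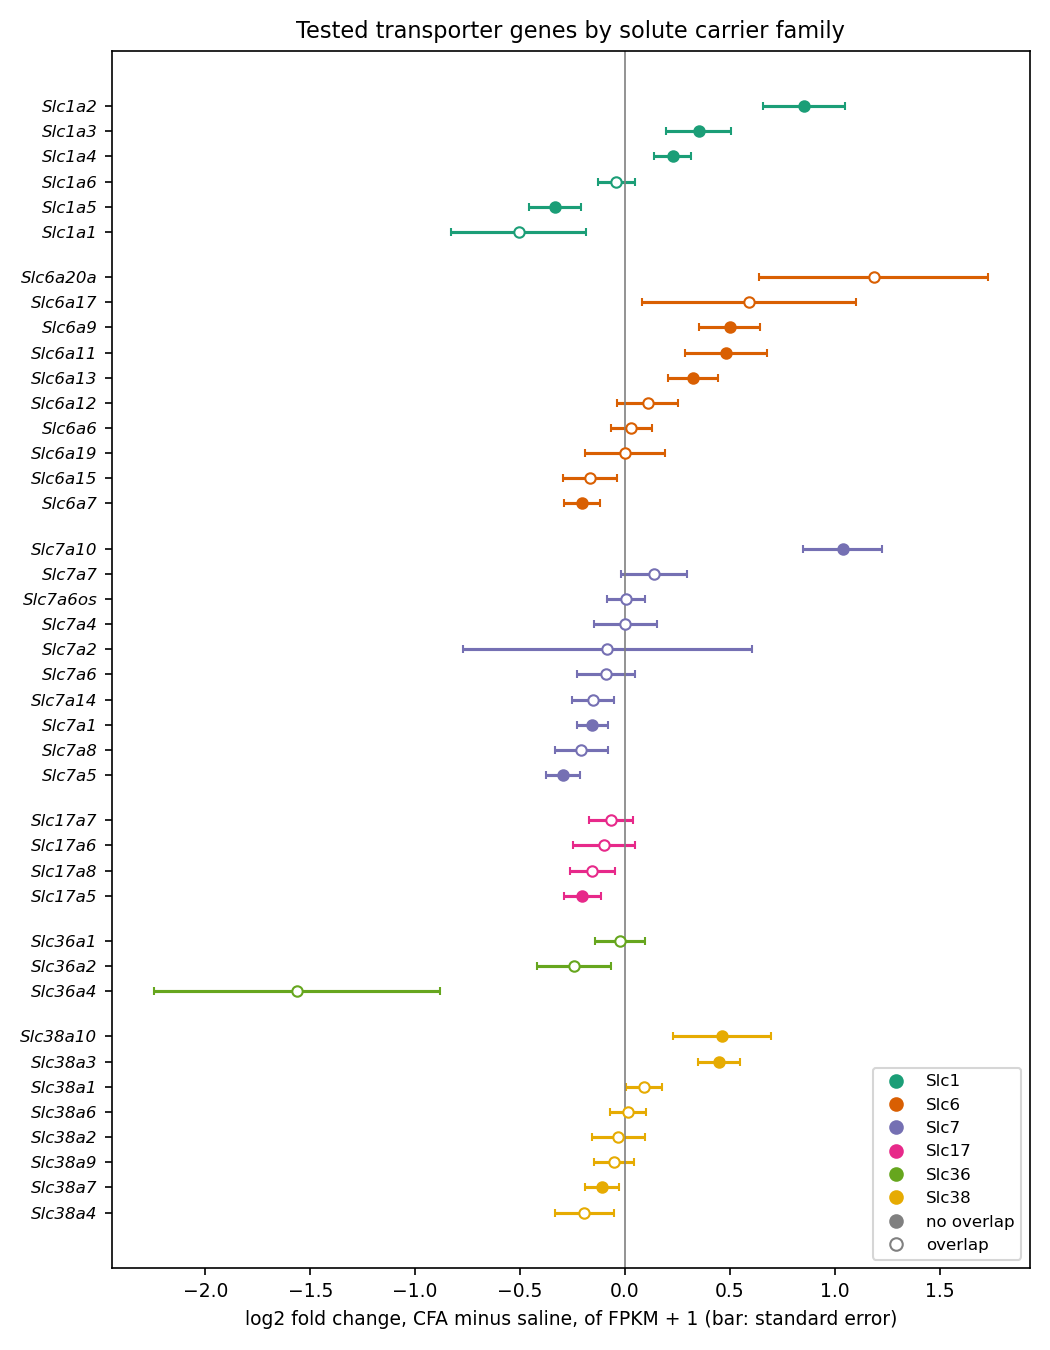
Log2 fold change of FPKM + 1, CFA minus saline, for tested transporter genes, grouped by family (colour), with bars for the standard error. Filled points are genes whose 3 CFA and 3 saline values do not overlap, of which Slc7a10 and Slc1a2 lie farthest to the right and Slc1a5 farthest to the left, while Slc7a2, Slc36a4 and Slc6a20a have the widest bars.

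By level, the most abundant member was Slc38a2, a sodium-coupled carrier of small neutral amino acids, at a mean of 73.2 FPKM over the 6 libraries. It exceeded or equalled 95.6% of the genes in the table. Next came the vesicular glutamate transporter Slc17a6 at 45.5 and the proton-coupled lysosomal carrier Slc36a1 at 26.8. The vesicular glutamate transporter Slc17a7 and the neuronal neutral amino acid carrier Slc6a15 followed at 18.0 and 17.8. At the other end, Slc7a11, Slc7a3, Slc6a5 and Slc17a9 had means of 0.805, 0.799, 0.411 and 0.382 FPKM and were left out of the test. No member was listed at 0 in any library.

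Vesicular glutamate loading genes showed overlapping groups. Slc17a6 (VGLUT2), the main vesicular glutamate transporter of nociceptors, stood at 43.7, 50.9 and 37.2 FPKM with CFA and at 39.7, 48.9 and 52.8 with saline. Its log2 fold change was -0.10 (SE 0.149), with a 95% interval from -0.46 to 0.25. Slc17a7 (VGLUT1), found in large-diameter afferents, stood at 18.7, 18.8 and 15.4 against 16.8, 19.3 and 19.2 FPKM, with an interval from -0.31 to 0.19. Slc17a8 (VGLUT3), known from low-threshold mechanoreceptors, was listed at 1.81 to 2.44 FPKM with CFA and 2.35 to 2.51 with saline (interval -0.41 to 0.096). These intervals bound the differences but do not show that the levels were the same. The lysosomal sialic acid carrier Slc17a5 was lower in each CFA library, at 8.58, 7.85 and 7.51 against 10.2, 8.85 and 9.0 FPKM (log2 fold change -0.20, SE 0.0901, limma adjusted p = 0.613). The vesicular nucleotide transporter Slc17a9 ran from 0.0789 to 0.398 with CFA and from 0.0133 to 1.06 with saline, so that the saline libraries spanned those with CFA.

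Of 4 genes of glutamate uptake, 2 had a log2 fold change above 0 and 2 below it. Slc1a2 (GLT-1), the main glutamate transporter of astrocytes, was listed at 9.93, 11.7 and 7.43 FPKM with CFA and at 3.92, 4.59 and 6.19 with saline. Every CFA library lay above every saline library, and the group means of 9.68 ± 2.14 and 4.90 ± 1.17 FPKM (SD, n = 3 each) differed 1.98-fold. The log2 fold change was 0.85 (SE 0.196), and the gene was not called (limma adjusted p = 0.281). Slc1a3 (GLAST), the glutamate transporter typical of satellite glia, stood at 7.65, 7.85 and 6.65 against 4.23, 6.52 and 6.17 FPKM. Its groups did not overlap, although CFA replicate 3 and saline replicate 2 were close together (log2 fold change 0.35, SE 0.155, limma adjusted p = 0.611). Without saline replicate 1, the lowest library, its log2 fold change was 0.19. The neuronal carrier Slc1a1 (EAAC1) ran from 0.342 to 2.43 FPKM with CFA and from 1.67 to 2.21 with saline. Slc1a6, which is typical of cerebellar Purkinje cells, stood at 1.33 to 1.53 against 1.42 to 1.57. Summed over these 4 genes, FPKM came to 19.7 ± 3.71 with CFA and 14.0 ± 2.37 with saline, and the sum in CFA replicate 3 (15.9) lay just below that in saline replicate 3 (16.0).

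The other Slc1 members, exchangers of neutral amino acids, lay in opposite directions. Slc1a4 (ASCT1), a serine and alanine exchanger, stood at 16.0, 14.6 and 17.5 FPKM with CFA against 12.9, 13.6 and 14.1 with saline (log2 fold change 0.23, SE 0.0878, limma adjusted p = 0.580). Slc1a5 (ASCT2), a glutamine exchanger of dividing and activated cells, stood at 7.48, 7.78 and 10.2 against 11.4, 10.3 and 11 (log2 fold change -0.33, SE 0.124, limma adjusted p = 0.574). Without overlap, Slc1a4 was higher and Slc1a5 lower, though CFA replicate 3 nearly reached the lowest saline library in Slc1a5. Their sum was 24.6 ± 2.82 against 24.4 ± 0.660 FPKM.

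GABA and glycine uptake genes of the Slc6 family lay mostly above the saline level. Slc6a11 (GAT3), the GABA transporter of astrocytes and satellite glia, was listed at 4.34, 4.53 and 4.82 FPKM with CFA and at 1.90, 3.68 and 3.66 with saline (log2 fold change 0.48, SE 0.195, limma adjusted p = 0.592). Saline replicate 1 is the low library here, and the log2 fold change without it was 0.25. Slc6a13 (GAT2), known from meninges and vessel-associated fibroblasts, stood at 5.82, 6.91 and 5.95 against 4.02, 5.27 and 5.07 (log2 fold change 0.33, SE 0.118, limma adjusted p = 0.571). The betaine and GABA carrier Slc6a12 overlapped, at 1.20 to 1.29 against 0.728 to 1.5.

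The glycine transporter Slc6a9 (GLYT1), which is found on glia, stood at 6.24, 4.80 and 4.95 FPKM with CFA and at 2.80, 4.16 and 3.52 with saline. Its groups did not overlap (log2 fold change 0.50, SE 0.147, limma adjusted p = 0.461). Slc6a5 (GLYT2), of glycinergic neurons, was listed at 0.203 to 0.914 with CFA and at 0.0133 to 0.735 with saline, too low for the test. Exons of Slc6a9 overlap those of Ccdc24 and B4galt2 on the other strand. The library kit was stranded, but the sources used here do not say whether counting used strand.

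On chromosome 6 (GRCm38), Slc6a11 spans 114131241 to 114249952. Slc6a13 (121300227 to 121337733) ends 5.3 kb before Slc6a12, and of these neighbours the first had groups without overlap and the second had overlapping groups. That they differed was not tested.

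Among the remaining Slc6 members, the proline carrier Slc6a7 was lower in each CFA library, at 2.25, 2.10 and 2.44 FPKM against 2.67, 2.86 and 2.74 (log2 fold change -0.20, SE 0.0866, limma adjusted p = 0.602). The most abundant member of the family, Slc6a15, stood at 16.2, 19.5 and 14.5 FPKM with CFA against 16.6, 19.5 and 20.2 with saline, with overlap. The taurine carrier Slc6a6 (3.39 to 3.81 against 3.24 to 3.99) and the neutral amino acid carrier Slc6a19, best known from gut and kidney (0.843 to 1.97 against 1.17 to 1.63), overlapped as well.

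**Figure D2:**
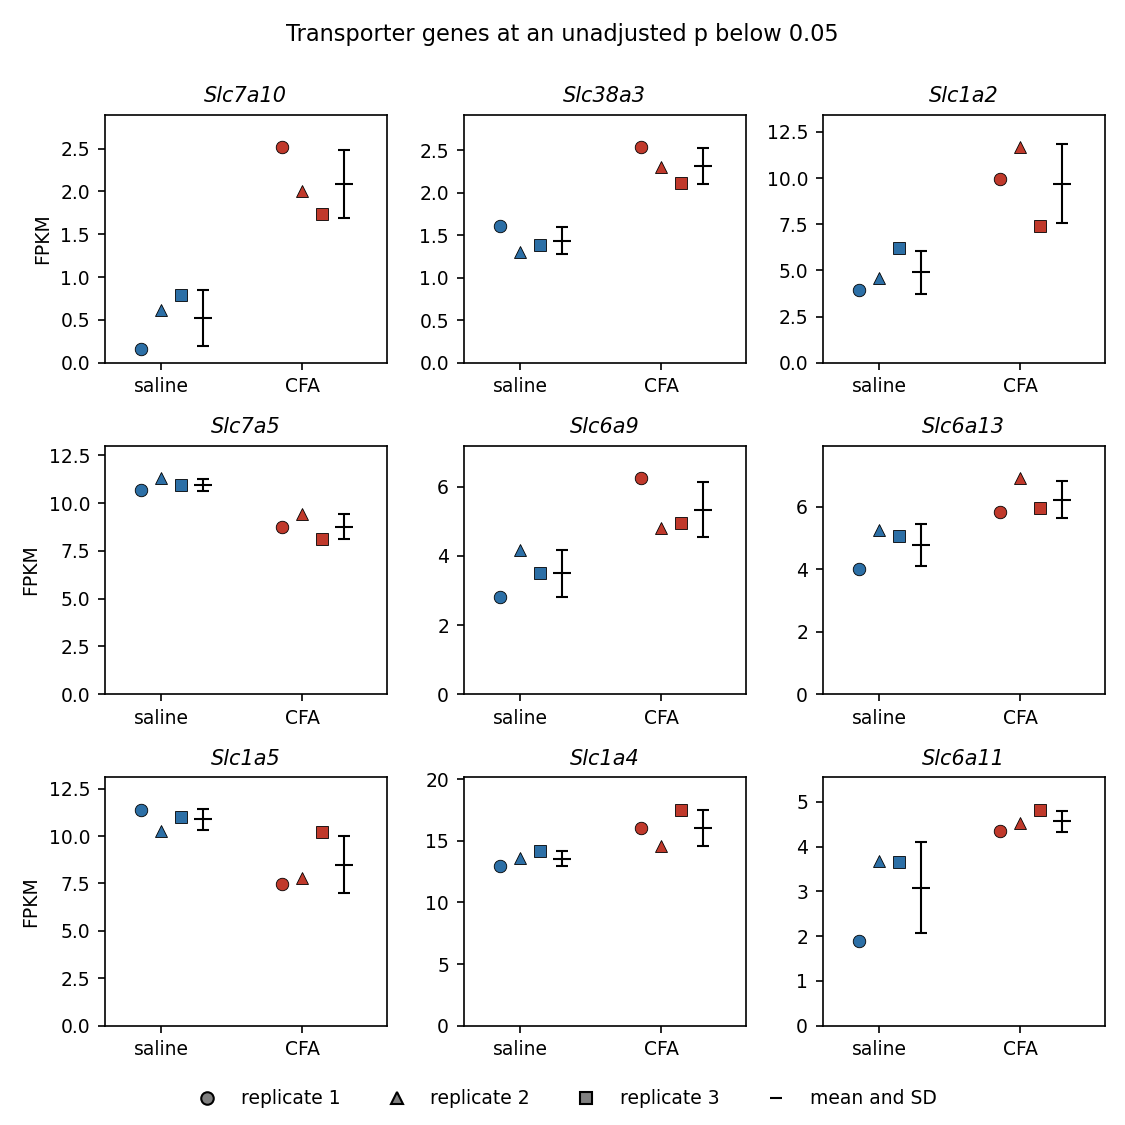
FPKM in each library (linear axes from 0) for the 9 members at an unadjusted p below 0.05, ordered by p, with saline in blue, CFA in red, a marker shape per replicate number, and the mean with its SD in black. In each panel the 3 CFA libraries lie on a single side of the 3 saline libraries, below them for Slc7a5 and Slc1a5 and above them for the other 7 genes.

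Among light chains of Slc7 exchangers, Slc7a10 (Asc-1) had the smallest p of all members. This exchanger of small neutral amino acids and D-serine stood at 2.52, 2.0 and 1.74 FPKM with CFA and at 0.16, 0.611 and 0.794 with saline. The lowest CFA library was thus well above the highest saline library, and the group means of 2.09 ± 0.397 and 0.522 ± 0.326 FPKM (SD, n = 3 each) differed 4.0-fold. The gene was not called (log2 fold change 1.04, SE 0.187, limma adjusted p = 0.193). It passed the filter on mean FPKM only through the CFA libraries, as each saline value was below 1. Its log2 fold change lay between 0.85 and 1.17 when any single library was left out. On chromosome 7 (GRCm38) Slc7a10 spans 35186385 to 35201114 and shares exon sequence with Lrp3 of the other strand. Lrp3 itself stood at 11.7 ± 0.170 with CFA and 12.5 ± 0.386 FPKM with saline.

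Slc7a5 (LAT1), which carries large neutral amino acids into growing and activated cells and across the blood-brain barrier, was lower in each CFA library. It stood at 8.76, 9.43 and 8.12 FPKM with CFA against 10.7, 11.3 and 10.9 with saline (log2 fold change -0.29, SE 0.0812, limma adjusted p = 0.418). Its heavy chain Slc3a2 overlapped, at 36.7, 27.7 and 33.9 against 40.5, 36.1 and 28.6 FPKM. The related light chains overlapped as well: Slc7a8 (LAT2) at 3.83 to 5.27 against 4.98 to 5.98, Slc7a6 at 3.19 to 3.45 against 2.80 to 4.23, and Slc7a7, which is strong in macrophages, at 14.1, 11 and 16.9 against 13.6, 12.7 and 11.2. The 6 light chains together summed to 33.9 ± 1.44 FPKM with CFA and 33.8 ± 0.428 with saline.

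Slc7a11 (xCT), which exchanges cystine for glutamate and so feeds glutathione synthesis, had a mean under 1 FPKM and was not in the main test. It was listed at 0.937, 1.17 and 0.938 with CFA and at 0.507, 0.636 and 0.643 with saline, without overlap. With no filter on level its log2 fold change was 0.33 (SE 0.0928, limma adjusted p = 0.431 over 13673 genes). Of the cationic carriers, Slc7a1 (CAT1) was lower in each CFA library, at 6.88, 7.23 and 6.72 against 7.80, 7.73 and 8.0 FPKM (log2 fold change -0.15, SE 0.0732, limma adjusted p = 0.621). Slc7a3 (CAT3) ran from 0.620 to 0.921 with CFA and from 0.829 to 0.894 with saline. Slc7a4 (1.76 to 2.01 against 1.37 to 2.45), the neuronal lysosomal member Slc7a14 (10.8 to 12.1 against 11.3 to 14.2) and Slc7a6os (4.81 to 5.15 against 4.48 to 5.40) overlapped.

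In the Slc38 family, Slc38a3 (SNAT3), the glial and liver system N carrier that releases glutamine, stood at 2.54, 2.30 and 2.11 FPKM with CFA and at 1.61, 1.30 and 1.39 with saline. The group means of 2.32 ± 0.214 and 1.43 ± 0.160 FPKM differed 1.62-fold without overlap (log2 fold change 0.45, SE 0.0993, limma adjusted p = 0.270). The abundant system A carriers, which take glutamine into neurons, overlapped: Slc38a2 (SNAT2) at 68.2, 80.2 and 68.3 against 62.5, 75.5 and 84.5, and Slc38a1 (SNAT1) at 13.6, 14.7 and 13.5 against 11.9, 13.1 and 14.1. Their intervals ran from -0.34 to 0.28 and from -0.12 to 0.30 on the log2 scale. Slc38a10 stood at 11.9, 13.2 and 14.8 against 11.7, 11.2 and 6.07 FPKM, where saline replicate 3 is the low library (log2 fold change 0.46, SE 0.232, limma adjusted p = 0.634), and its log2 fold change was 0.19 without that library and 0.11 without both libraries numbered 3. The lysosomal glutamine carrier Slc38a7 was lower without overlap, at 5.66 to 6.12 against 6.17 to 6.88 (log2 fold change -0.11, SE 0.0819). Slc38a9, the lysosomal arginine sensor (2.54 to 2.84 against 2.54 to 3.10), Slc38a6 (1.43 to 1.65 against 1.45 to 1.53) and Slc38a4 (0.641 to 1.19 against 1.09 to 1.49) overlapped.

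In the Slc36 family, Slc36a1 (PAT1) stood at 27.6, 29.7 and 22.7 FPKM with CFA against 24.5, 26.8 and 29.7 with saline, and Slc36a2 (PAT2), which lies 19.3 kb from it on chromosome 11, at 11.5, 11.1 and 16.4 against 18.6, 14.2 and 13.7. Both overlapped.

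Slc1a2, Slc1a3, Slc6a9, Slc6a11, Slc38a3 and Slc7a10, which are known from glia and are taken here from the members without overlap, are set beside markers of cell types in the ganglion and its root. These 6 genes were chosen after their values were seen, and all come from the members higher under CFA. That their CFA libraries lie above the saline libraries therefore follows from the choice. The summed FPKM of 7 astrocyte markers ran from 154 to 172 with CFA and from 104 to 122 with saline, a 1.48-fold difference of means. All 9 oligodendrocyte markers had rows, and their sum ran from 518 to 578 against 388 to 470 (1.26-fold). For 10 satellite glia markers the sum ran from 1704 to 2187 against 1178 to 1501 (1.35-fold). At an unadjusted p below 0.05, 4 of 6 tested astrocyte markers, 5 of 9 oligodendrocyte markers and 4 of 10 satellite glia markers were higher, where 5.37% of all tested genes were. The Schwann cell marker Cdh19, listed with satellite glia, was lower at that p (2.95% of all tested genes were). No marker of these lists was called by limma over all genes or listed at 0 in any library, and no list holds a transporter described here. The sum of 9 Schwann cell and myelin markers overlapped (2100 to 2460 against 2080 to 2919), with 2 markers higher at that p, the myelin genes Mag (44.4 ± 5.58 against 27.8 ± 4.37) and Gjb1 (24.3 ± 1.10 against 18.3 ± 1.74). The sum of 12 sensory neuron markers overlapped as well (4937 to 5705 against 4263 to 5255), with 1 marker, Isl1, lower at that p. Of 12 macrophage markers 8 (66.7%) were higher at that p and without overlap, among them Ctss at 47.9 ± 2.92 against 29.0 ± 2.80 FPKM and C1qb at 38.1 ± 3.25 against 25.2 ± 0.183, and none was called. By comparison the mean of Slc7a10 differed 4.0-fold, Slc1a2 1.98-fold, Slc38a3 1.62-fold, Slc6a9 1.53-fold, Slc6a11 1.48-fold and Slc1a3 1.31-fold. The part of these marker differences in the transporter values was not tested. In bulk tissue, more cells of a type and more RNA per cell cannot be told apart. Glul, the glutamine synthetase of satellite glia and astrocytes, is among the satellite glia markers and stood at 211 ± 3.45 with CFA and 216 ± 18.2 FPKM with saline, with overlap. Markers of choroid plexus, the tissue that makes cerebrospinal fluid, summed to 258 to 343 FPKM with CFA and 53.3 to 63.7 with saline over 6 genes, of which Ttr was called by limma. Most of this difference was Ttr alone, at 225 ± 36.3 against 2.08 ± 0.184 FPKM. Of the 4 tested markers, 3 with Ttr among them were higher at an unadjusted p below 0.05, and the median log2 fold change was 0.673. The sum of 11 fibroblast and meninges markers overlapped, at 446 to 517 FPKM with CFA and 509 to 533 with saline. In that list 3 markers were higher and 1 was lower at an unadjusted p below 0.05. Cldn11, also counted in the oligodendrocyte list, was among the higher, at 73.4 ± 6.24 against 49.8 ± 6.81 FPKM. With Cldn11 taken out, each CFA sum of this list lay below each saline sum. The part of the choroid plexus, fibroblast and meninges markers in the values of Slc6a13 and Slc6a20a was not tested.

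**Figure D3:**
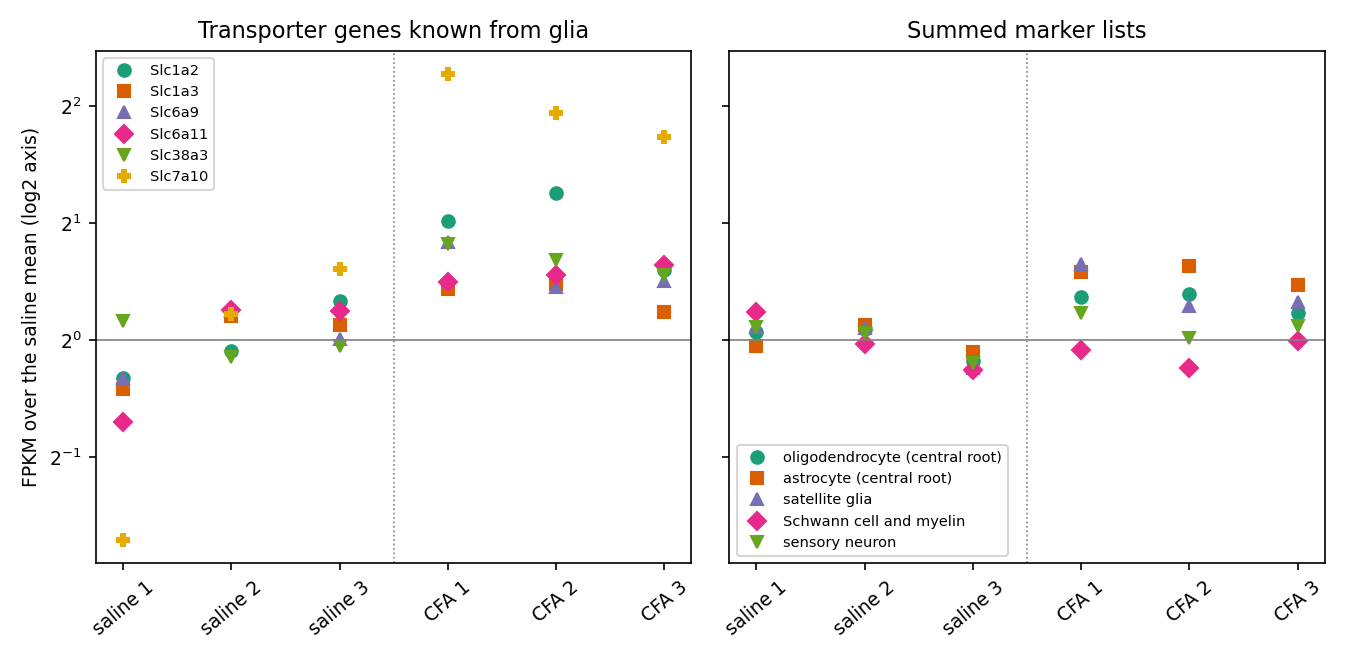
Left, FPKM of 6 transporter genes known from glia, taken from the members without overlap, in each library, divided by the gene's saline mean; right, the summed FPKM of 5 marker lists divided by the saline mean, both on the same log2 axis. The CFA libraries lie above the saline libraries in all 6 genes, which were taken from members where they do. They also do so in the astrocyte, oligodendrocyte and satellite glia sums, but not in the Schwann cell or neuron sums.

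Some members differed more between libraries of a group than between groups. A range of at least 3-fold inside a group occurred in 6 of the 42 tested members (14.3%), against 5.82% of all tested genes. Slc36a4 (PAT4), a proton-independent relative of Slc36a1, was listed at 0.356, 9.27 and 1.39 FPKM with CFA and at 7.82, 8.21 and 9.56 with saline. CFA replicate 2 thus sat within the saline range, and the other CFA libraries were far below it (log2 fold change -1.56, SE 0.683, limma adjusted p = 0.611). Without CFA replicate 2 its log2 fold change was -2.40 (limma adjusted p = 0.0665), and without CFA replicate 1 it was -0.94, the bounds over single libraries left out. Slc6a20a (SIT1), a proline and betaine carrier, stood at 0.535, 6.24 and 4.65 against 0.704, 0.736 and 0.808. Here CFA replicate 1 lay below all saline libraries, and the log2 fold change was 1.18 (SE 0.545, limma adjusted p = 0.621). Without CFA replicate 1 it was 1.87 and passed (limma adjusted p = 0.0380), the single call of a member in any fit made. That fit left out the CFA library that lay below saline, so its groups were separate by that choice. With a saline mean of 0.749 FPKM, the gene also passed the filter on mean FPKM only through CFA libraries. Without CFA replicate 2 the log2 fold change of Slc6a20a was 0.75. Its limma adjusted p ran from 0.0380 to 0.917 over the alternatives. Slc6a20a has 3 annotated transcripts and a close paralog, Slc6a20b, so its value is uncertain if counting split reads between the copies, and its exons overlap the antisense gene Gm17120.

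The synaptic vesicle carrier Slc6a17 stood at 1.23, 6.76 and 0.906 FPKM with CFA and 1.01, 1.0 and 1.40 with saline, so that CFA replicate 2 alone was high. Slc7a2 (CAT2), the cationic carrier linked to arginine use in macrophages, stood at 1.57, 10.7 and 3.24 against 11.2, 2.33 and 2.73, high in a single library of each group. Slc1a1, described above, completes the group with Slc7a10. Of the 6 genes, all but Slc7a10 were highest within the CFA group in replicate 2. These genes have from 3 to 10 annotated transcripts, and the sources used here do not say how FPKM was summed over transcripts.

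**Figure D4:**
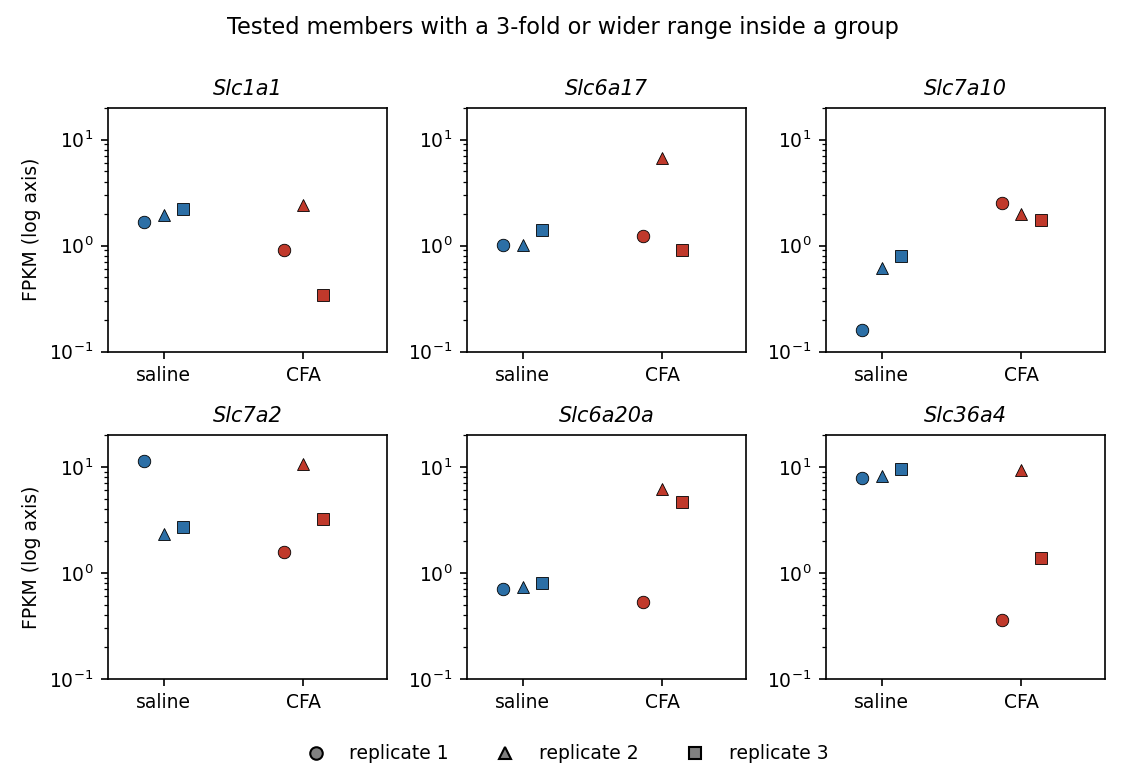
FPKM on a log axis in each library for the 6 tested members with a range of at least 3-fold inside a group, saline in blue, CFA in red and a marker shape per replicate number. Slc7a10 alone shows separate groups, while in Slc6a20a, Slc36a4, Slc6a17 and Slc7a2 a single library sits apart from the other libraries of its group.

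Several of these carriers belong to the cell's response to lack of amino acids. ATF4, the transcription factor of that response, is known to bind promoters with the core TGATGNAA, in which N is any base. Promoter windows of 250 bases before to 50 after a start (RefSeq, GRCm38.p6) were found for 33 of the 46 members and were searched on both strands. Slc7a5 and Slc1a5, the members lower under CFA at an unadjusted p below 0.05, had no window and could not be searched. The core occurred in 4 of the members' 53 windows, from 3 genes, and in 3.97% of 32841 windows of all genes. A window of each gene is shown (that of Slc7a7 overlaps its other matching window) because Slc7a11 and Slc1a4 were higher without overlap and Slc7a7 overlapped. Capitals mark the matches in either orientation, and the sequences run 5′ to 3′ along each gene.
Slc7a11 (chr3:50443564-50443863, minus strand): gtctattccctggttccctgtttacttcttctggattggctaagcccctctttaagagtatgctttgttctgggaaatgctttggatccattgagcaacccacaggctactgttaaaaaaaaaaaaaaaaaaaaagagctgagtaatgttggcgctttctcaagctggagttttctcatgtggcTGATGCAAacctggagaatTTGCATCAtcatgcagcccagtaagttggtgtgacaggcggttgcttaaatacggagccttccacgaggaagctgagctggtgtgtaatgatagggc
Slc1a4 (chr11:20332664-20332963, minus strand): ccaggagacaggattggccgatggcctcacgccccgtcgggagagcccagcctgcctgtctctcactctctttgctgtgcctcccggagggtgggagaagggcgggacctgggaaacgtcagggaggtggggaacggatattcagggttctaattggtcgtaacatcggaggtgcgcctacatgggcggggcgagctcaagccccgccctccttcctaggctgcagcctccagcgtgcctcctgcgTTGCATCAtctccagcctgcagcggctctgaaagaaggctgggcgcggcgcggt
Slc7a7 (chr14:54417895-54418194, minus strand): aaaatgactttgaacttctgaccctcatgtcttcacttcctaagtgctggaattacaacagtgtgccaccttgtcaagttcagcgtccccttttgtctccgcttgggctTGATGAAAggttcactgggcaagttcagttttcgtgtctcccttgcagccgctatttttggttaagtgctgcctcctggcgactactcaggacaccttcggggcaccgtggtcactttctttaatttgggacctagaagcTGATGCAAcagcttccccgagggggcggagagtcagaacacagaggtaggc
The Slc7a11 window holds matches that begin 66 and 47 bases before the start, in opposite orientation. The Slc1a4 match begins 4 bases before the start, and the Slc7a7 matches begin 141 and 1 bases before it. A match describes the letters and shows no binding.

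Of 17 tested genes of serine, asparagine and cysteine synthesis and the ATF4 response, 3 had higher and 2 had lower values at an unadjusted p below 0.05 (29.4%, against 8.32% of all tested genes), with a median log2 fold change of 0.133, and none was called by limma over all genes. The cystathionine synthase Cbs stood at 2.05 ± 0.305 against 1.09 ± 0.233 FPKM and the glutathione synthetase Gss at 5.86 ± 0.361 against 4.4 ± 0.481. The serine synthesis enzyme Psat1 stood at 15.0 ± 1.63 against 11.3 ± 1.35. The stress gene Ddit4, an inhibitor of mTORC1 that glucocorticoids also induce, stood at 33.2 ± 2.48 against 44.2 ± 5.99, and Chac1, which breaks down glutathione, at 1.43 ± 0.143 against 1.92 ± 0.153. Members of the list thus lay on both sides of the saline level.

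Other genes around the transporters mostly overlapped between groups. Of 18 tested enzymes of glutamate, glutamine, GABA and glycine metabolism none was at an unadjusted p below 0.05, where 8.32% of all tested genes were. Their median log2 fold change was 0.074. Of 23 genes of lysosomal amino acid sensing and mTORC1, 1 was lower at that p and none higher (4.35%, below the share of all genes). This was Sesn1, a relative of the leucine sensor Sesn2, at 19.3 ± 1.63 against 25.4 ± 0.284 FPKM. Among 14 other amino acid carriers 1 was lower (7.14%, also below that share), Slc43a3, at 8.46 ± 0.576 against 11.3 ± 0.631. Of 4 other tested vesicle genes 1 was at that p (25%), the vesicle glycoprotein Sv2a, higher at 23.8 ± 1.51 against 19.6 ± 1.38. The vesicular GABA transporter Slc32a1 was low, at 0.779 ± 0.367 against 0.581 ± 0.293 FPKM. None of the 4 tested partner subunits and accessory proteins was at that p.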

How the data were processed

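The 6 libraries (3 CFA, 3 saline) were grouped by the treatment label. Values are FPKM deposited by the authors in 1 table, per the file headers; GRCm38 is the build in the submitters' processing notes. Poly(A) selection and a stranded kit are named in the labels' protocols. The sources used here name no aligner, quantifier or use of strand. FPKM totals ran from 261183 to 275152; low values showed no whole-read steps (strongest strength 0.134 of 1), so depth is unknown and no counting interval is given. The 12238 genes whose mean reached 1 FPKM (42 members) were compared as log2(FPKM + 1) with limma 3.58.1 in R 4.3.3 (eBayes with trend, two-sided, Benjamini-Hochberg over all tested genes), a procedure tested on simulated data. An exact permutation test of 3 against 3 cannot go below 0.1 and was not used. All 46 identifiers matched GENCODE M21. 

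Members, gene lists and roles were chosen with earlier results of these data known. Values are given for members at an unadjusted p below 0.05, for those without overlap among the 12 smallest p, and for the most abundant and most different member of each family; the rest are given as ranges, or per library where a library stands apart. Other settings tried were no filter, a mean of 5 or more, a pseudocount of 0.1, median-of-ratios and quantile scaling, robust variances, the replicate block, each library left out and, chosen after seeing the data, both libraries numbered 3 left out. Values of some genes are not reported here. Figures used matplotlib 3.10.9.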

Additional observations from a re-analysis of the deposited data

How the results depend on the processing

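Across 14 alternatives no transporter gene was called except Slc6a20a without CFA replicate 1, so leaving out single libraries gave 0 to 1 calls among members. Over all genes the 7 calls became 13 with robust variances, 1 under a replicate block, and 5 to 19 when a library was left out; the cause was not tested. The numbers were not taken to pair the libraries. Deviations of same-numbered libraries correlated at 0.080, 0.111 and -0.048, and only the libraries numbered 2 passed the set threshold of 0.1. The pituitary sum was lowest in replicate 2 and highest in replicate 3 of both groups (312 and 2938 FPKM with CFA, 266 and 4955 with saline). Whether same-numbered libraries were handled together was not tested. Under the replicate block 0 members were called and 10 were at an unadjusted p below 0.05. That count was 8 to 10 over the settings with all libraries, except 5 of 23 with a mean of at least 5 FPKM. It was 7 to 10 without single libraries and 6 of 41 without both libraries numbered 3, where 5.69% of all genes were at that p. Members without overlap numbered 14 to 16 over the settings with all libraries, except 10 of 23 with a mean of at least 5 FPKM, and 16 to 20 without single libraries, where 20.2% to 34.3% of all genes also lacked overlap because fewer libraries were compared. Without both libraries numbered 3 there were 23 of 41, beside 34.9% of all genes. The members' median log2 fold change lay between -0.084 and 0.014.

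Of the 20 genes that the rule chose, 16 kept their direction in every setting run. The other 4, all near 0, changed sign: without both libraries numbered 3 the log2 fold changes were 0.096 for Slc17a6, 0.15 for Slc36a1, 0.10 for Slc38a2 and -0.069 for Slc7a7, and without single libraries they ran from -0.22 to 0.011, -0.10 to 0.082, -0.15 to 0.067 and 0.0010 to 0.29. Slc7a10, Slc38a3, Slc1a2, Slc6a9 and Slc7a5 were at an unadjusted p below 0.05 in all 6 fits without a single library, Slc6a13 in 4, Slc6a11 in 3, Slc1a5 in 2 and Slc1a4 in 1. Without both libraries numbered 3, Slc7a5, Slc6a13, Slc6a11 and Slc1a4 lay above that threshold (limma unadjusted p = 0.0587, 0.0625, 0.0787 and 0.112). In that fit other log2 fold changes moved without a change of direction. They were 1.17 for Slc1a2, 1.25 for Slc7a10, -0.45 for Slc1a5, -0.018 for Slc6a15, -1.27 for Slc36a4 and 0.955 for Slc6a20a. The log2 fold change of Slc7a10 was 1.98 with the pseudocount of 0.1. Depth is unknown, so members near 1 FPKM carry a counting error that is not in these intervals.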
